A study of Bombyx mori with 4 samples.

Results

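Long protein-coding mRNAs were examined in BmN4 cells, a cell line derived from the silkworm ovary that carries the piRNA pathway of germ cells. A gene model annotated as protein-coding was taken as a long mRNA when its sequence was over 3000 nt, when it exceeded 10 RPKM (reads per kilobase of sequence, scaled by the genome-mapped reads) in at least 1 condition, when it had at most 100 RPKM in the control, and when its log2 fold change (FC) between the conditions lay from -1 to 1. These limits were met by 182 of the 18596 sequences in the table, or 182 of the 2617 protein-coding genes above 10 RPKM (6.95%). Length, level and change thus chose the members, and their values are given as a description, with no test. In addition, 2154 protein-coding mRNAs of 3000 nt or less, here called shorter mRNAs, met the same limits on level and change and served for comparison.

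All cells were electroporated with a duplex siRNA. The control received siRNA against luciferase (Luc KD), and the other cells received siRNA against Siwi (Siwi KD). Total RNA was depleted of ribosomal RNA and sequenced in pairs from 2 libraries per condition, yielding 77614516 and 68702400 reads from the control cells and 81135072 and 77184922 reads from the Siwi-depleted cells. The 2 libraries of a condition were merged before deposition, so each sequence has only 1 count and 1 RPKM value in Luc KD and the same in Siwi KD, and no difference between the conditions described here has a replicate check. Siwi KD is a knockdown in a cultured line, and its depth cannot be read from this table, because its gene models carry identifiers that matched none (0) of the entries in the RefSeq table of gene names. For the same reason markers of germ cells were not checked, and members are given by their length, with identifiers for the 2 with the highest and the 2 with the lowest log2 FC.

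Siwi is one of the PIWI proteins of the silkworm. Bound to piRNAs, it cleaves transposon mRNAs in the cytoplasm, in germ granules called nuage, where the helicase BmVasa and the other PIWI protein, Ago3, also reside. Protein-coding mRNAs are not the main target of this pathway, so they serve as a reference against which the change of transposons is read. Length enters such a reference in a direct way. RNA is fragmented before sequencing, and a long mRNA gives more reads than a short one present in the same number of copies. RPKM divides the reads by length and therefore compares mRNAs per length, whereas the reads themselves show how much of the sequenced RNA they make up.

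Of the 14300 protein-coding gene models, 1370 were over 3000 nt, and 193 of these (14.1%) exceeded 10 RPKM in at least 1 condition. Among the 12930 models of 3000 nt or less, 2424 (18.7%) did so. The limit of 100 RPKM in Luc KD then removed 3 long mRNAs, and the limits on log2 FC removed 3 above 1 and 5 below -1, leaving 182. A level above 100 RPKM in Luc KD was reached by 1.55% of the expressed models over 3000 nt and by 8.58% of the shorter ones. The limits cut through continuous distributions. The shortest member had 3002 nt, with 22.5 RPKM in Luc KD against 20.03 RPKM in Siwi KD, and the longest mRNA just outside had 2999 nt, with 10.3 and 10.5 RPKM. A member of 4081 nt passed the lower limit with 10.02 RPKM in Siwi KD, while an mRNA of 5550 nt missed it with 9.997 RPKM in Luc KD. On the upper side, the highest member had 87.3 RPKM in Luc KD, and the next mRNA outside, of 3833 nt, had 108 RPKM.

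The lengths of the 182 long mRNAs ran from 3002 to 15787 nt (median 4085 nt, quartiles 3413 and 5305 nt). The median length of the shorter mRNAs was 1236 nt, so the medians differed 3.30-fold. Only 48 of the 182 lengths (26.4%) were multiples of 3, which means that the lengths are not those of coding sequences alone. In Luc KD, the RPKM values of the long mRNAs ranged from 4.65 to 87.3, with a median of 15.4 and quartiles of 11.7 and 22.2. In Siwi KD, they ranged from 5.15 to 83.2, with a median of 14.1 and quartiles of 10.8 and 22.0. The long mRNAs were thus concentrated just above the limit of 10 RPKM. Between 10 and 20 RPKM in Luc KD lay 115 of them (63.2%), and only 8 exceeded 50 RPKM. For the shorter mRNAs, the median in Luc KD was 17.9 RPKM, or 1.16 times that of the long mRNAs, with 52.0% between 10 and 20 RPKM and 204 above 50 RPKM.

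**Figure D1:**
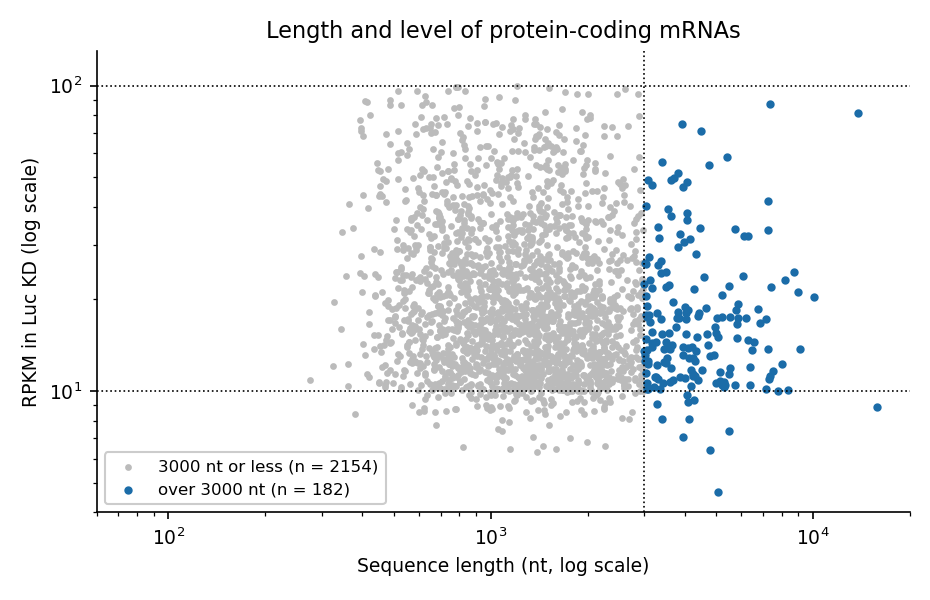
RPKM in Luc KD plotted against sequence length, both on log scales, for the 182 mRNAs over 3000 nt (blue) and the 2154 shorter mRNAs (grey) within the limits; each point is 1 mRNA, and dotted lines mark 3000 nt, 10 RPKM and 100 RPKM. Most blue points lie between 10 and 20 RPKM, and 8 lie above 50 RPKM.

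Within the range of level left by the rule, RPKM in Luc KD was set beside length among the members themselves. Spearman's rho between length and RPKM in Luc KD was -0.05 over the 182 long mRNAs and -0.13 over the 2154 shorter mRNAs, given as descriptions across genes of the same libraries. Members of 3001 to 3500 nt had a median of 15.1 RPKM in Luc KD (n = 50), those of 3501 to 4000 nt one of 17.4 RPKM (n = 32), and those of 4001 to 5000 nt one of 14.6 RPKM (n = 44). The median was 14.9 RPKM at 5001 to 6000 nt (n = 25), 15.7 RPKM at 6001 to 8000 nt (n = 22) and 20.4 RPKM above 8000 nt (n = 9). The medians of the length classes lay between 14.6 and 20.4 RPKM, and the longest member was 5.26 times as long as the shortest. The rule chose members by level and by length, so no relation of level to length is read from these values.

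By reads, the picture was different. The long mRNAs received 2140342 reads in the control, compared with 2092610 when Siwi was depleted. A member had 2878 to 137388 reads in Luc KD, with a median of 8438, which was 2.94 times the median of the shorter mRNAs. Relative to the 2336 mRNAs within the limits, the long mRNAs were 7.79% of the genes, held 6.54% of the summed RPKM in Luc KD and took 20.6% of the reads (95% Wilson interval 20.52% to 20.59%). In Siwi KD, the corresponding values were 6.51% of the RPKM and 20.5% of the reads (20.42% to 20.49%). When all 2617 expressed protein-coding genes were taken as the whole, including those above 100 RPKM, the long mRNAs held 2.06% of the RPKM and 8.61% of the reads in the control. With Siwi depleted, these shares were 2.08% and 8.68%. The intervals were computed on read pairs and cover counting error only. Long mRNAs thus made up a minor part of the protein-coding population per length and a larger part of the protein-coding reads. Of the reads on all sequences, transposons included, they took 2.77% in the control and 2.46% with Siwi depleted. Between the conditions, the share of protein-coding reads differed by -0.10 percentage points among the mRNAs within the limits. Among all expressed protein-coding genes, it differed by 0.071 percentage points.

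**Figure D2:**
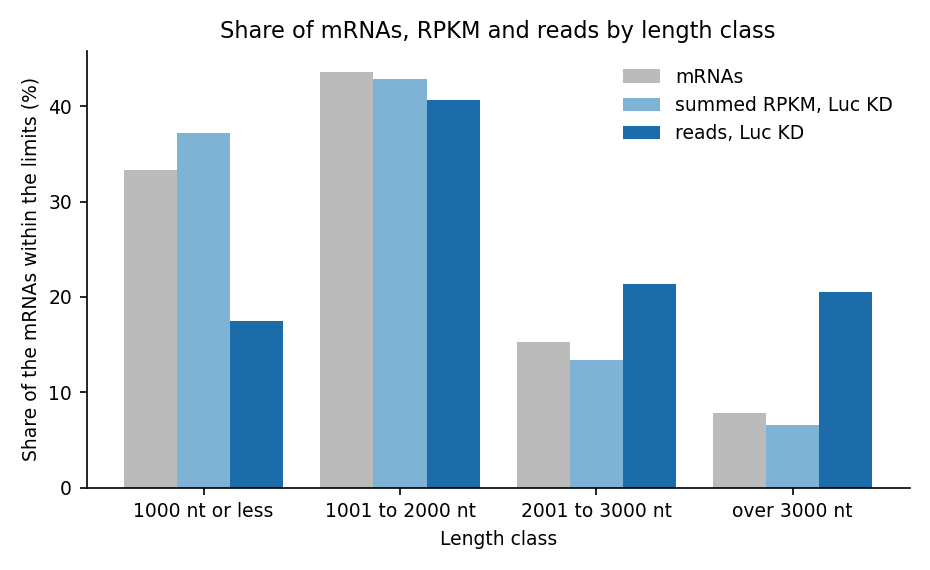
Bars show, for 4 length classes of the mRNAs within the limits, the share (%) of mRNAs, of summed RPKM in Luc KD and of reads in Luc KD. The class over 3000 nt holds 7.79% of the mRNAs and 6.54% of the RPKM but 20.6% of the reads, whereas the class of 1000 nt or less holds 37.2% of the RPKM and 17.5% of the reads.

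The limit of 100 RPKM in Luc KD bounded the share of the summed RPKM that a single long mRNA could hold. The 3 expressed mRNAs of this length above that limit are not among the members. The 10 members with the highest RPKM held 17.3% of the members' summed RPKM in Luc KD, and 49 members were needed to reach 50% of it. The member with the highest level was 7362 nt long. It had 87.3 RPKM (78520 reads) in the control, compared with 61.4 RPKM (58684 reads) upon depletion of Siwi. A member of 13785 nt followed, with 81.5 RPKM in Luc KD against 83.2 RPKM in Siwi KD. Its 137388 reads in Luc KD were the most of any member, at 6.42% of the reads on long mRNAs, and its log2 FC was 0.03 (counting error 0.0076). Next by level were mRNAs of 3932 nt (74.6 RPKM in Luc KD, 66.2 RPKM in Siwi KD), 4498 nt (70.97 and 75.4 RPKM) and 5415 nt (58.2 and 46.9 RPKM). Of the 10 highest in Luc KD, 7 were also among the 10 highest in Siwi KD, and 8 had a lower value in Siwi KD. These 10 were picked by their level in Luc KD, which favours a lower value in Siwi KD. Of the shorter mRNAs at 50 to 100 RPKM in Luc KD, 79.9% were lower in Siwi KD, as were 69.1% of all expressed protein-coding genes. Nothing particular to the 10 is therefore read from this count.

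By reads in Luc KD, the 5 leading members were those of 13785, 7362, 4498 and 5415 nt, already named, and an mRNA of 7288 nt. The last had 37342 reads in the control against 39380 after depletion of Siwi, which gave 41.9 and 41.6 RPKM. It thus ranked above members with higher RPKM values because of its length. The 5 longest members were 15787, 13785, 10054, 9143 and 9006 nt long. The longest had 8.86 RPKM in Luc KD against 11.2 RPKM in Siwi KD (17090 and 22912 reads), and passed the limit of 10 RPKM only in Siwi KD. The member of 9143 nt had 13.7 and 13.4 RPKM, and that of 9006 nt had 21.1 and 15.6 RPKM in Luc KD and Siwi KD, respectively. Of these 5, the longest was thus necessarily higher in Siwi KD, and the others were lower or nearly equal there.

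To determine how long mRNAs behaved when Siwi was depleted, log2 FCs were calculated as the ratio of RPKM + 1 in Siwi KD to that in Luc KD. The median log2 FC of the 182 long mRNAs was -0.12, with quartiles of -0.29 and 0.09, and that of the 2154 shorter mRNAs was also -0.12, with quartiles of -0.29 and 0.05. The medians differed by 0.0059. The median of all 2617 expressed protein-coding genes was -0.13 under the authors' scaling to genome-mapped reads. This shift is that of the median of expressed genes, and it varied with level, as described below. Relative to this shift, the median was 0.013 for long mRNAs and 0.0070 for shorter mRNAs. By the deposited values, 121 of the 182 long mRNAs (66.5%) were lower in Siwi KD, beside 68.3% of the shorter mRNAs, 69.1% of all expressed protein-coding genes and 62% of all expressed sequences, but relative to the protein-coding median only 86 long mRNAs (47.3%) were lower. Summed RPKM of the long mRNAs went from 3672 to 3351, a difference of -8.75%, and that of the shorter mRNAs differed by -8.20%. The cells were lysed in bulk, and RPKM values are relative to the other RNA in a library, so a change in the amount of an mRNA per cell and a change in the cells or in the other RNA cannot be told apart. The rule used these changes, so nothing particular to long mRNAs is read from them.

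**Figure D3:**
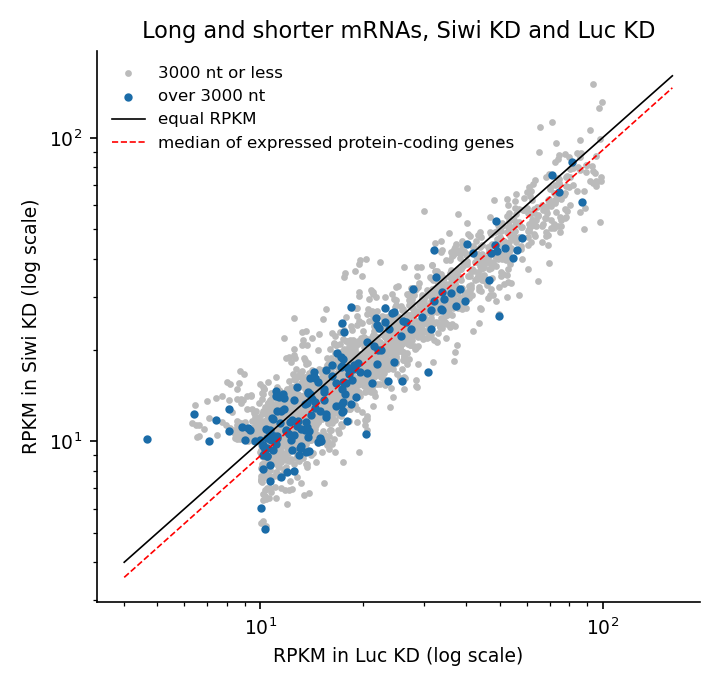
RPKM in Siwi KD plotted against RPKM in Luc KD, both on log scales, for long mRNAs (blue) and shorter mRNAs (grey), with 1 point per mRNA. The solid line marks equal RPKM, and the dashed red line marks the median log2 FC of expressed protein-coding genes (-0.13), around which both sets of points lie; 66.5% of blue points are below the solid line and 47.3% below the dashed one.

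A log2 FC under -0.5 was found for 16 of the 182 long mRNAs (8.79%) and one over 0.5 for 5 (2.75%). For the 2154 shorter mRNAs, these were 144 (6.69%) and 71 (3.30%). Over all 2617 expressed protein-coding genes, including those outside the limits, 7.91% were under -0.5 and 4.66% over 0.5, and over all 3006 expressed sequences, with transposons included, 7.12% and 8.55% were. Relative to the protein-coding median, 6 long mRNAs were under -0.5 and 10 over 0.5, where 4.2% and 6.46% of all expressed protein-coding genes and 3.73% and 11.8% of all expressed sequences were, so that the balance between lower and higher members turned with the scaling. The counting error of the log2 FC was 0.0076 to 0.054 for long mRNAs, with a median of 0.032, and had a median of 0.054 for shorter mRNAs. It was thus small beside the quartiles of the log2 FC, but the spread between replicate libraries could not be determined.

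The member with the lowest log2 FC was KWMTBOMO15314.mrna1 (3708 nt), which had 49.96 RPKM (22642 reads) in the control against 25.97 RPKM (12496 reads) in Siwi KD. Its log2 FC was -0.92 (counting error 0.023). KWMTBOMO15337.mrna1 (10054 nt), the third longest member, had 20.4 RPKM (25014 reads) in the control against 10.6 RPKM (13766 reads) in Siwi KD, and its log2 FC was -0.89 (counting error 0.022). Their RPKM values in the control were 1.92 and 1.93 times those in Siwi KD. Relative to the protein-coding median, the log2 FCs were -0.79 and -0.76. The next lowest members, of 3219 and 3971 nt, had log2 FCs of -0.88 and -0.82. That of 3219 nt exceeded 10 RPKM only in Luc KD, with 10.3 RPKM against 5.15 RPKM in Siwi KD. Just outside the limit of -1 was an mRNA of 3316 nt with 19.5 RPKM in Luc KD against 9.20 RPKM in Siwi KD.

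At the other end, KWMTBOMO14510.mrna1 (5065 nt) had 4.65 RPKM (2878 reads) in the control against 10.2 RPKM (6712 reads) in Siwi KD, and its log2 FC was 0.99 (counting error 0.045). KWMTBOMO02041.mrna1 (4797 nt) had 6.40 RPKM (3752 reads) in the control against 12.3 RPKM (7650 reads) in Siwi KD, and its log2 FC was 0.84 (counting error 0.041). Both entered the set through Siwi KD, where they exceeded 10 RPKM. Just outside the limit of 1 was an mRNA of 4409 nt with 5.14 RPKM in Luc KD against 11.9 RPKM in Siwi KD. The other members over 0.5 were 4136, 5491 and 5770 nt long, with log2 FCs of 0.60, 0.60 and 0.57. Of these 3, only the mRNA of 5770 nt exceeded 10 RPKM in both conditions, with 18.4 RPKM in Luc KD against 27.7 RPKM in Siwi KD.

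The limit of 10 RPKM bears on these extremes. Of the 182 long mRNAs, 145 exceeded it in both conditions, 25 only in Luc KD and 12 only in Siwi KD. A member that passed in 1 condition only was necessarily higher in that condition. Among the 145 above 10 RPKM in both, 7 had a log2 FC under -0.5 (4.83%) and 1 had one over 0.5 (0.69%). Their median was -0.10, with quartiles of -0.26 and 0.09. Of the 1873 shorter mRNAs above 10 RPKM in both conditions, 95 (5.07%) were under -0.5 and 43 (2.30%) over 0.5, and their median was -0.11.

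When the members were grouped by their level in Luc KD, the median log2 FC was -0.07 at 10 to 12 RPKM (n = 39), -0.18 at 12 to 15 RPKM (n = 38), -0.11 at 15 to 20 RPKM (n = 38) and -0.11 at 20 to 30 RPKM (n = 25). It was -0.21 at 30 to 50 RPKM (n = 22) and -0.28 at 50 to 100 RPKM (n = 8). Shorter mRNAs of the same levels had medians of -0.06, -0.10, -0.12, -0.18, -0.19 and -0.21, respectively. In both sets, mRNAs of higher level were lower in Siwi KD, with a rho between RPKM in Luc KD and log2 FC of -0.26 over the long mRNAs and -0.27 over the shorter mRNAs. Since RPKM in Luc KD is part of the ratio, these coefficients are a description only. At equal level, from 10 RPKM upward, the medians of long and shorter mRNAs differed by at most 0.081.

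The change was next compared across lengths. Members of 3001 to 3500 nt had a median log2 FC of -0.17, and those of 3501 to 4000 nt had one of -0.19. It was -0.07 at 4001 to 5000 nt, -0.12 at 5001 to 6000 nt, -0.04 at 6001 to 8000 nt and -0.03 above 8000 nt. The quartiles of these classes overlapped. For example, they were -0.27 and 0.01 at 3001 to 3500 nt and -0.19 and 0.10 at 6001 to 8000 nt. Over the 182 members, rho between length and log2 FC was 0.11, and over the 2154 shorter mRNAs it was 0.08. Among the shorter mRNAs, those of 500 nt or less stood lowest, with a median of -0.28 (n = 79). All members with a log2 FC over 0.5 were over 4000 nt long, 2 of them at 4001 to 5000 nt and 3 at 5001 to 6000 nt, where the classes held 44 and 25 members. However, 4 of these 5 exceeded 10 RPKM only in Siwi KD, so nothing on length is read from them. Members under -0.5 occurred in every length class, with 2 to 4 in each. Of these 16, however, only 7 exceeded 10 RPKM in both conditions. The others did so only in Luc KD and were necessarily lower in Siwi KD, among them all those at 5001 to 6000 nt and at 6001 to 8000 nt. Nothing on length is therefore read from these members either.

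**Figure D4:**
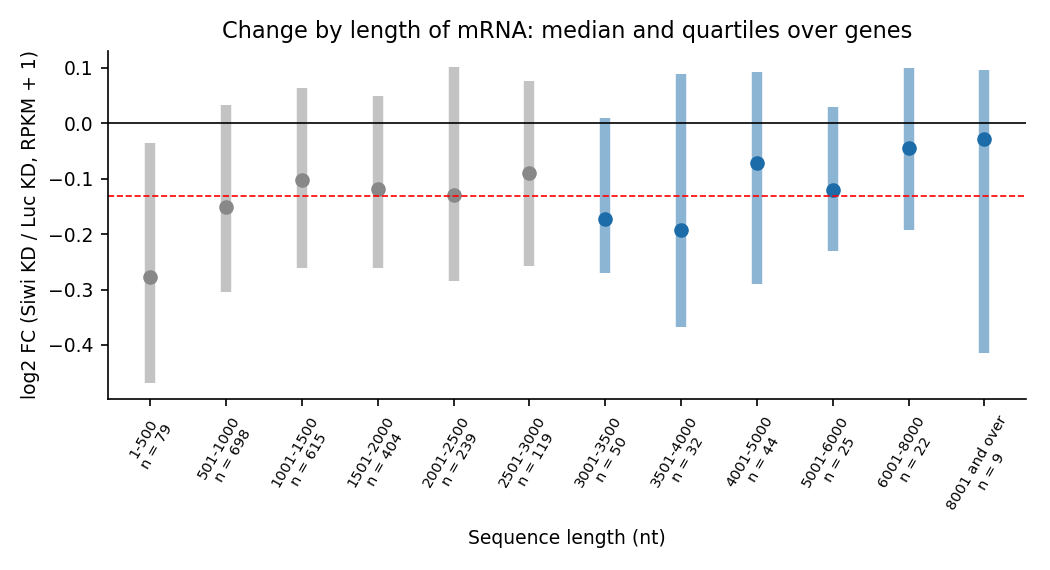
Median (points) and quartiles (bars) over genes of the log2 FC (Siwi KD to Luc KD, RPKM + 1) in 12 length classes in nt, with mRNAs over 3000 nt in blue and shorter mRNAs in grey. The solid line marks 0 and the dashed red line the median of expressed protein-coding genes (-0.13); the medians of the blue classes lie from -0.19 to -0.03, on both sides of the dashed line, and their quartiles overlap.

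Transposons over 3000 nt within the same limits on level and change were set beside the long mRNAs. Which of them Siwi acts on was not tested. These 124 transposons were longer than the long mRNAs, with a median of 5004 nt against 4085 nt, and had a median of 16.1 RPKM in Luc KD, against 15.4 RPKM for long mRNAs. In Siwi KD, their median was 20.4 RPKM, against 14.1 RPKM for long mRNAs. Their median log2 FC was 0.27, with quartiles of 0.15 and 0.48, which was 0.39 above that of the long mRNAs. Only 12 of the 124 (9.68%) were lower in Siwi KD by the deposited values, and 5 relative to the protein-coding median. A log2 FC over 0.5 was found for 29 long transposons (23.4%) against 5 long mRNAs (2.75%), and one under -0.5 for 0 and 16. These counts include 24 transposons and 12 mRNAs that exceeded 10 RPKM only in Siwi KD and were thus necessarily higher there. Above 10 RPKM in both conditions, a log2 FC over 0.5 was found for 22 of 97 long transposons (22.7%) and for 1 of 145 long mRNAs (0.69%), and one under -0.5 for 0 and 7. The median log2 FC there was 0.25 for the transposons and -0.10 for the mRNAs. The next values are again over all sequences within the limits. They include those above 10 RPKM only in Siwi KD, which were necessarily higher there. The median log2 FC of the long transposons was exceeded by 15 of the 182 long mRNAs (8.24%) and by 8.64% of the shorter mRNAs. Shorter transposons had a median of 0.25 (n = 157). Long and shorter mRNAs thus had nearly equal medians, and so had long and shorter transposons. The limit of 1 removed strongly changed transposons, and without the limits on change and on 100 RPKM the median of the 172 expressed transposons over 3000 nt was 0.37. Similar transposon copies can share reads, so their values are not independent of each other.

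**Figure D5:**
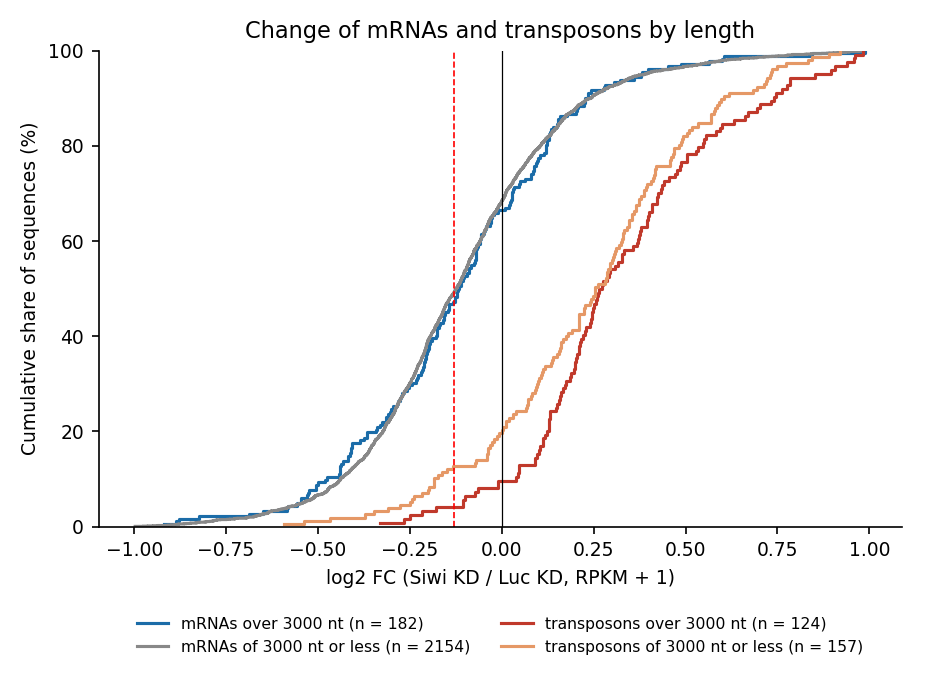
Cumulative share (%) of sequences plotted against log2 FC (Siwi KD to Luc KD, RPKM + 1) for mRNAs and transposons over 3000 nt and of 3000 nt or less, all within the same limits. The curves of long (blue) and shorter (grey) mRNAs run together through a median of -0.12, and those of long (red) and shorter (orange) transposons lie to the right, with medians of 0.27 and 0.25; the solid line marks 0 and the dashed red line the median of expressed protein-coding genes.

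The limits left out 11 expressed mRNAs over 3000 nt, 3 of them with a log2 FC above 1 and 5 with one below -1. The limits on log2 FC thus removed the largest changes of this length by construction. For an mRNA of 3714 nt, 1.40 RPKM (636 reads) in the control stood against 10.4 RPKM (5010 reads) in Siwi KD, and the log2 FC was 2.25 (counting error 0.086). One of 9524 nt had 4.08 and 10.9 RPKM, with a log2 FC of 1.23. Both exceeded 10 RPKM only in Siwi KD, so they were necessarily higher there. In the other direction, the mRNA of 4144 nt had 27.1 RPKM in Luc KD against 10.4 RPKM in Siwi KD, with a log2 FC of -1.30. The 3 above 100 RPKM in Luc KD were 3758, 3833 and 5109 nt long. Their levels were 209, 108 and 116 RPKM in Luc KD against 171, 69.5 and 176 RPKM in Siwi KD, respectively, so that 2 were lower and 1 was higher in Siwi KD. With the 11 included, the median log2 FC of the 193 mRNAs was -0.12, 22 of them (11.4%) were under -0.5 and 9 (4.66%) over 0.5. For the 2424 expressed mRNAs of 3000 nt or less, these shares were 7.63% and 4.66%. Of the 193, 28 exceeded 10 RPKM only in Luc KD and 15 only in Siwi KD. Of the 2424, 197 and 126 did so, and all of these were necessarily higher in that condition.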

How the data were processed

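Total RNA of BmN4 cells was sequenced in 2 libraries each for Luc KD and Siwi KD. The authors corrected and trimmed the reads (Trim Galore 0.6.6), aligned them to the SilkBase genome with STAR, realigned them to SilkBase gene models and transposons in random and multiple counting modes, and counted sense reads with SAMtools. The deposited counts are raw reads per sequence with the replicates merged, and the authors normalized them to length and to genome-mapped reads to obtain RPKM. Totals of 122229138 (control) and 129779634 (Siwi KD) genome-mapped reads were calculated here from the deposited counts, lengths and RPKM values. Every count was even, so counting errors were computed on pairs. Over all sequences, 77350240 reads (Luc KD) and 84961588 reads (Siwi KD) were counted, with 29903886 and 29350876 of them on protein-coding genes. At 3000 nt, 10 RPKM corresponds to 3667 and 3893 reads.

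Log2 FC is log2((Siwi KD RPKM + 1)/(Luc KD RPKM + 1)). With 1 merged value per condition, no test was run and no p-value computed, and the planned edgeR fit was not possible. A log2 FC of 0.5 in either direction was used to count changes. The members, lists and comparisons were chosen with earlier results of these data known. Members were named by extremes of length, RPKM, reads and log2 FC and by closeness to the limits, and mRNAs outside the limits were also chosen by size of change after their values were seen. The length in the table was used as given. Alternatives varied the pseudo-count, thresholds, limits and scaling. The log2 FC was tested on simulated read pairs with counting error only, without the pseudo-count and at equal depth in both conditions. Tables were read with pandas 2.3.3 and numpy 2.4.6 under Python 3.11.15, intervals came from scipy 1.17.1, and plots from matplotlib 3.10.9.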

Additional observations from a re-analysis of the deposited data

How the results depend on the processing

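Similar gene models can share reads, the spread between libraries is unknown, and fold changes on the RPKM + 1 scale understate changes near 10 RPKM. No paired analysis was possible because the deposited columns merge the replicates, and for the same reason no replicate could be left out. Of 112 values under 14 alternatives, 58 stayed within the counting or binomial interval, within 1% for shares of RPKM or within 1.5 times for counts. The difference between the medians of long and shorter mRNAs lay between -0.0020 and 0.052 and had no stable sign.

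Scaled to the median of expressed protein-coding genes, the long median was 0.013, the shorter median 0.0070, the share of long mRNAs lower in Siwi KD 47.3%, and 6 long mRNAs were under -0.5 and 10 over 0.5. Scaled by the reads on protein-coding genes, these were -0.0045, -0.010, 50.5%, 6 and 8. Scaled by all reads counted, the long and shorter medians were both -0.17. With a pseudo-count of 10, the long median was -0.070 and the shorter median -0.085, and 3 long mRNAs were under -0.5 and 0 over 0.5. With a threshold of 0.25 in place of 0.5, 54 and 15 long mRNAs passed, and with 0.75, 4 and 2. The counts at these thresholds are by the deposited values, where the median of expressed protein-coding genes was -0.13. Where no share of the shorter mRNAs or of all expressed genes is given beside such counts, nothing particular to long mRNAs is read from them.

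Above 5 RPKM, there were 439 long mRNAs, 26 under -0.5 and 13 over 0.5, with 11.1% of protein-coding reads and 2.82% of RPKM. The long and shorter medians there were -0.095 and -0.10. Above 20 RPKM, there were 58, 5 and 1, with 5.80% and 1.26%, and the long and shorter medians were both -0.17. Above 10 RPKM in both conditions, 7 and 1 passed, with 7.96% and 1.88%. With no filter, there were 1330, 37 under -0.5 and 29 over 0.5, with 13.0% and 3.38%, medians of -0.0029 and -0.0019, and 51.2% lower. For mRNAs over 2500 nt, there were 301, 9 over 0.5, with 12.2% and 3.54%, and over 4000 nt, 100, 10 under -0.5, with 5.69% and 1.09%. With no limit on RPKM or log2 FC, 9 were over 0.5, with 9.71% and 2.37%. Shares of shorter mRNAs past 0.5 were not determined above 5 or 20 RPKM, with no filter or at the other lengths. Nothing particular to long mRNAs is read from the counts there.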

Other observations

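Without a single read in both conditions were 27 of the 1370 protein-coding models over 3000 nt (1.97%) and 1807 of the 12930 models of 3000 nt or less (14.0%). More than 1 RPKM in Luc KD was found for 908 of the long models (66.3%) and for 52.0% of the others, but more than 10 RPKM for 178 (13.0%) and for 17.8%. Between these levels, above 1 and up to 10 RPKM, lay 53.3% of the models over 3000 nt and 34.2% of the others. The median over all models in Luc KD was 2.68 RPKM for those over 3000 nt and 1.24 RPKM for the others. Of these differences, those in the median and in the share above 1 RPKM do not set models over 3000 nt apart from those nearest in length. The median was 3.27 RPKM above 2000 and up to 2500 nt and 2.98 RPKM at 2501 to 3000 nt, where 68.1% and 67.7% exceeded 1 RPKM, and the lower values of the pooled shorter models came with those of 500 nt or less (0.035 RPKM, 27.1%) and of 501 to 1000 nt (0.61 RPKM, 46.1%). The share above 10 RPKM did differ from that of the nearest lengths. In at least 1 condition, 22.9% of the models exceeded 10 RPKM above 2000 and up to 2500 nt, and 19.1% at 2501 to 3000 nt. In the length classes over 3000 nt, 13.0% to 16.4% did. A read is more easily caught on a long sequence, and the part of detection in these shares was not tested.

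Below the limit, 695 models over 3000 nt had more than 1 and up to 10 RPKM in both conditions. Their median log2 FC was -0.05, with quartiles of -0.19 and 0.09, and that of 4145 models of 3000 nt or less was -0.04, with quartiles of -0.21 and 0.13. A log2 FC under -0.5 was found for 17 and one over 0.5 for 14 of the 695 (2.45% and 2.01%). For the 4145 others, these shares were 3.93% and 4.15%.

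The longest protein-coding model, of 61688 nt, had 152 reads in the control against 360 reads in Siwi KD, or 0.020 and 0.045 RPKM. The next, of 61459 nt, had 46 and 52 reads. Among the members, 14 shared their length with another member, in 7 pairs, and whether these are similar copies was not tested.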
